A study of Mus musculus with 4 samples.

Results

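MOV10 peaks in short genes were the peaks of a MOV10 eCLIP list whose midpoint lay in exactly 1 annotated gene span, that gene spanning less than 15 kb from its first to its last annotated base, introns included. They were chosen by position alone and numbered 1229 of 12236 listed peaks (10.0%), in 277 genes, 266 of them protein-coding. Genes of 15 kb or more held 9978 of the other peaks, 755 lay in several genes and 274 in none. The peaks came from N2A cells, a mouse neuroblastoma line, grown in DMEM with serum and flash-frozen, and the labels name no genotype or drug contrast. The study made 4 libraries, 2 immunoprecipitates with an anti-MOV10 antibody and 2 inputs of the same cells, and the deposited list set the immunoprecipitates against the inputs. Each peak carried 1 pair of the authors' values over all libraries, read here as the enrichment over input on the log2 scale (log2 fold enrichment) and the −log10 p. That reading rests on the ranges and order of columns that have no header. No value per library and no sequencing depth was known, no standard deviation can be given, and no difference below was tested. The peaks of a gene share its RNA and are not replicates.

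MOV10 is an ATP-dependent RNA helicase that moves along RNA and unwinds it, and it associates with Argonaute proteins, which carry microRNAs to sites that lie mostly toward the 3′ end of messenger RNAs. In eCLIP, ultraviolet light crosslinks a protein to the RNA it touches, and the RNA fragments that come down with the protein are sequenced beside an input. Short genes include many housekeeping and regulatory genes, such as those of ribosomal proteins, histones and transcription factors. By the definition used here their ends lie less than 15 kb apart.

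For a few peaks in short genes the bases under the peak could be read, because the start-site window of a neighbouring gene in the RefSeq table of GRCm38.p6 covered them. These windows run from 250 bases before to 50 after a gene start, and 6 of the 1229 peaks overlapped one. The pieces below, of at most 30 bases and written 5′ to 3′ on the strand of the peak, show bases under peaks near a neighbouring gene's start. The neighbour of Mafg starts past the end of Mafg, while those of Foxm1, Arpc4 and Pcif1 start inside the span of the short gene. Capitals mark the motif TGTANATA, known as a site of Pumilio proteins.
Mafg, chr11:120625165-120625194, minus strand: tgcTGTACATAgtgtatgtttgtgatatat
Foxm1, chr6:128375278-128375307, plus strand: cttcctgctcctgagccttcccaggcaagg
Arpc4, chr6:113389174-113389190, plus strand: attggtcgctgtggtct
Arpc4, chr6:113389191-113389218, plus strand: gggcgggcctggagccagaaggcgacta
Pcif1, chr2:164891379-164891400, plus strand: tgtgtgagggtcttggggcggt

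The piece of Mafg, a small Maf transcription factor gene, was 30% G and C, while that of Foxm1, a transcription factor gene of cell division, was 63.3%. The 28-base piece of Arpc4, an actin-nucleating ARP2/3 complex gene, reached 71.4%. The Mafg peak had a log2 fold enrichment of 3.13 and lay 62 nt from the end of the gene. The Foxm1 peak stood at 3.23, 610 nt from its end. The adjoining peaks of Arpc4 stood at 3.35 and 3.36. Their midpoints lay 78 and 55.5 nt before the start of the neighbouring gene Ttll3, which is inside the Arpc4 span. The peak of Pcif1, the cap-adenosine methyltransferase gene, had its midpoint 7.5 nt from the annotated end, the nearest of all the short-gene peaks. It stood at 3.46 on the log2 scale with a −log10 p of 3.01. The peak ran from 164891379 to 164891486, past the end of the gene at 164891440. In all, 2 short-gene peaks reached past their gene span. The motif TGTANATA, searched on both strands after the letters had been seen, was in 1 of 6 pieces, a 14-base piece of Shc1 not shown included, and in 0.234% of 32851 central 30-base stretches of start-site windows. AATAAA, the canonical polyadenylation signal, was in 0 of 6 pieces and in 2.15% of those stretches. Because TGTANATA was picked from the Mafg piece, its count of 1 was known before the search. The pieces are few, of unequal length and not drawn like the stretches, so neither motif can be called frequent or rare under peaks.

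A microRNA hairpin lay in part under 1 short-gene peak, 31 of its 62 nt. In Plpp2, a lipid phosphate phosphatase gene on chromosome 10, the minus-strand peak at 79531060 to 79531208 held all 22 bases of mmu-miR-6909-5p, which is shown because it is the annotated microRNA inside the peak, its seed (bases 2 to 8) in capitals.
mmu-miR-6909-5p: cAGGGGGGcuggaaugggcacu

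This Plpp2 peak stood at 3.14 on the log2 scale, where the lowest short-gene peak stood at 3.002, and its −log10 p was 3.02. It lay 4710 nt from the 3′ end of Plpp2, in a gene whose other peak, at 3.22, lay 146.5 nt from that end.

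Peaks were rarer in short genes than in long ones. Of 10116 coding genes below 15 kb, 266 held an assigned peak, which is 2.63% (exact 95% binomial interval 2.33 to 2.96, for counting error only). Of 11784 coding genes of 15 kb or more, 12.1% held one (interval 11.5 to 12.7), and of all 21900 coding genes 7.7%. Short genes were 46.2% of the coding genes of the annotation, and short genes of every kind gave 1229 of the 11207 peaks that lay in exactly 1 gene. The share climbed with length within the short genes too. It was 2 of 3005 genes (0.0666%) below 2.5 kb, 1.86% from 2.5 to 5 kb, 2.56% from 5 to 7.5 kb, 4.81% from 7.5 to 10 kb, 5.17% from 10 to 12.5 kb and 6.26% from 12.5 to 15 kb. Past the limit it was 6.30% from 15 to 20 kb, so the limit itself marked no step.

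**Figure D1:**
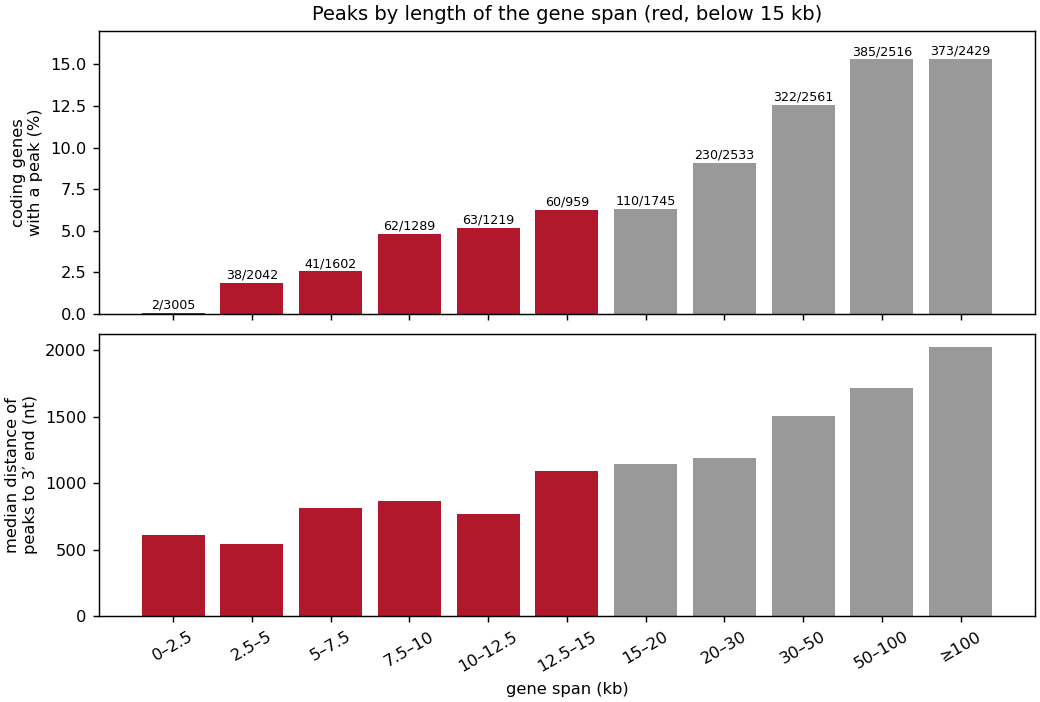
The upper bars give the percentage of protein-coding genes with an assigned peak in 11 classes of gene span in kb, with the number of genes with a peak over all genes of the class, and the lower bars give the median distance of the peaks to the 3′ end in nt. Classes below 15 kb are red; the share goes from 0.0666% to 6.26% among them and reaches 15.4% in the longest genes.

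The shortest coding genes with peaks were Mrfap1, of 1888 nt, with 6 peaks up to 4.42, and Ctxn1, the cortexin gene, of 1629 nt, with 1 peak at 3.03. The short genes of the annotation include 1393 olfactory, vomeronasal, taste and trace amine receptor genes, and 0 of them held a peak. Without them 3.05% of 8723 short coding genes held one. The amount of each RNA in the input was not known, so whether a gene without a peak was unbound or little expressed cannot be told apart. A further 52 short coding genes lay only under peaks that several genes share and were not counted.

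Peaks in short genes were somewhat weaker than those in long genes in the authors' values. Their median log2 fold enrichment was 3.60 (quartiles 3.29 and 3.98), a 12.1-fold enrichment, against 3.73 (3.35 and 4.22), or 13.3-fold, in genes of 15 kb or more. The list as a whole had a median of 3.71. On the log2 scale 297 short-gene peaks (24.2%) reached 4, against 34.9% of the long-gene peaks, where the whole list had 33.7%. At least 5 was reached by 27 short-gene peaks (2.20%) and by 6.38% of the long-gene peaks. With 1 value per gene the gap all but closed for the typical peak. The median over coding genes of the gene's own median was 3.49 in short genes and 3.50 in long genes. The strongest peak per gene had a median of 3.76 (quartiles 3.37 and 4.20) in short genes and 3.87 (3.43 and 4.43) in long genes. That strongest value is taken over fewer peaks in short genes, a median of 2 against 3, and was not corrected for this.

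The −log10 p had a median of 11.1 in short genes and 10.2 in long genes, so the lower median enrichment of the short-gene peaks did not come with a lower median −log10 p. Widths were alike, with a median of 72 nt in short genes and 73 nt in long genes. The highest listed −log10 p, 400, was held by 7 of the 1229 short-gene peaks. It was held by 73 of the 9978 long-gene peaks and by 84 of all 12236 listed peaks. Of the 7 short-gene peaks 3 lay in Rny1, 2 in the histone variant gene H3f3b, 1 in Srsf1 and 1 in Maz, a zinc finger transcription factor gene. These 7 had log2 fold enrichments between 3.23 and 4.54.

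**Figure D2:**
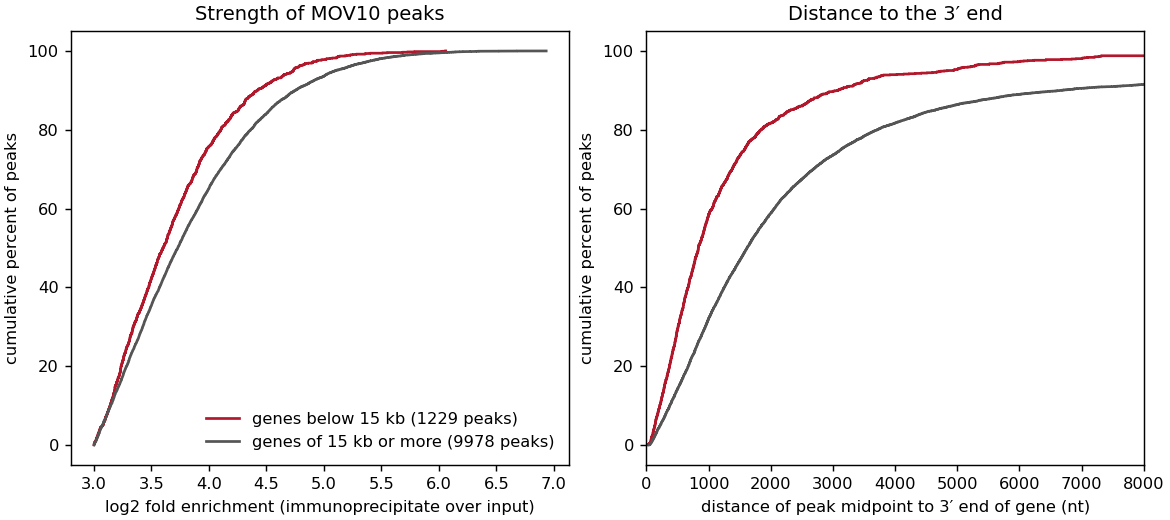
Cumulative percentage of peaks by log2 fold enrichment over input (left) and by distance of the peak midpoint to the 3′ end of the gene in nt (right, drawn up to 8 kb), for 1229 peaks in genes below 15 kb (red) and 9978 peaks in genes of 15 kb or more (grey). The red curve lies to the left in both panels, with medians of 3.60 against 3.73 and of 835 against 1618 nt.

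Within short genes the peaks lay toward the 3′ end, here taken in the direction of the peak's strand. Of the 1229 peaks 1168 (95.0%) had their midpoint nearer the 3′ than the 5′ end, and 633 (51.5%) lay in the last 10% of the span. The median midpoint was 835 nt away from the 3′ end (quartiles 444 and 1574), against 1618 nt (805 and 3130) in long genes. Within 500 nt of the end lay 29.5% of the short-gene peaks and 14.2% of the long-gene peaks, and within 1 kb 58.5% and 32.1%. A short span bounds this distance by itself. Relative to the span the order turned, with the median short-gene peak 9.71% of the span away from the end and the median long-gene peak 2.66%. Weighting coding genes equally, the median of the gene's own median distance was 664 nt in short genes and 1188 nt in long genes.

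The 5′ ends of short genes held few peaks. Of 266 coding genes 251 had all their peaks nearer the 3′ end, 11 had peaks on both sides and 4 on the 5′ side alone. Within 1 kb of a 5′ end lay 18 peaks, 4 of them in coding genes, in Bcl2l2, Kctd17 and Mrfap1, and 14 in non-coding genes, which are mostly about that short themselves. Kctd17 was named after its values were seen. The strand could be checked where the start-site table lists the gene. All 921 peaks in the 218 genes it lists were on the gene's own strand, and 0 of these 921 overlapped the start-site window of their own gene.

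Enrichment changed little with distance over the last 5 kb of short genes. The median log2 value was 3.56 for 362 peaks within 500 nt of the end, 3.67 for 356 peaks at 500 to 1000 nt, 3.52 for 286 peaks at 1 to 2 kb and 3.64 for 168 peaks at 2 to 5 kb. The 57 peaks at 5 kb or more stood higher, at 3.95, and 27 of these were in Pabpc1. Without Pabpc1 the other 30, in 11 genes, had a median of 3.59. In long genes the medians over the same distances, up to 15 kb, were 3.71 to 3.75. By side, the short-gene peaks had a median of 3.66 on the 5′ side and 3.60 on the 3′ side, and the long-gene peaks 3.44 and 3.74. In the 90 short coding genes with 5 or more peaks, the strongest peak lay nearer the 3′ end than the gene's median peak in 42 and farther in 39, while in the 588 such long genes it was nearer in 357 and farther in 191.

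Short genes held fewer peaks each. The median coding gene with peaks held 2 in short genes and 3 in long genes, and a lone peak was found in 102 short genes (38.3%), against 26.9% of long genes. At least 10 peaks were found in 37 short genes (13.9%) and in 23.4% of the long genes. In the 164 short genes with several peaks the outermost midpoints were a median of 754 nt apart, against 1496 nt in long genes. The peaks of a short gene together covered a median of 246 nt, or 3.06% of its span, and those of a long gene 369.5 nt, or 0.658%. The 10 short genes with most peaks held 241 peaks (19.9% of those in short coding genes), and Pabpc1 alone held 4.88% of all the short-gene peaks. Peaks that touch were counted singly here. Merged where they touch, the medians per gene stayed at 2 and 3, but the order of single genes changed. The 60 peaks of Pabpc1 then formed 19 stretches, the 20 of Srsf1 7 and the 19 of Jph4 6, while the 15 of Zc3hav1l formed 13.

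The strongest enrichment in a short gene was in Trp53inp2 on chromosome 2 (155381811 to 155389847, plus strand, GRCm38). The gene is named for a p53-inducible nuclear protein, and its product promotes autophagy. Its 30 peaks had log2 fold enrichments from 3.01 to 6.06 with a median of 4.48, and 27 of them reached 4. They spread from 80.5 to 2795 nt before the 3′ end, covered 22.9% of the gene, and fell into 2 groups more than 300 nt apart. The 20 peaks nearer the end had a median of 4.88, and the 10 farther in had 4.22. The highest, at 155389645 to 155389737, was 156 nt from the end with a −log10 p of 29.9. Of the 27 short-gene peaks that reached 5, 9 were in this gene.

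Myadm, a myeloid-associated membrane protein gene on chromosome 7, came next, with 13 peaks from 3.19 to 6.03, all within 1332 nt of the 3′ end. The highest, at 3299046 to 3299098, was 283 nt from the end, and 3 of the 13 reached 5. Icmt, the methyltransferase that caps prenylated proteins such as Ras, had 17 peaks from 3.07 to 5.68 within 3318.5 nt of the end. The leading one, 960.5 nt from the end, stood alone above 5, and the 12 peaks more than 1 kb from the end reached at most 4.55. Vat1, a vesicle-associated protein gene on chromosome 11, had 15 peaks from 3.31 to 5.51, of which 13 lay within 1 kb of the end.

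Mmgt1 and Hif1an differed from these in where the leading peak lay. Mmgt1, a subunit gene of the endoplasmic reticulum membrane complex, reached 5.23 at 2217 nt from the 3′ end, and its 3 peaks within 1 kb reached at most 3.89. Hif1an, the asparagine hydroxylase that inhibits hypoxia-inducible factor 1, reached 5.13 at 3576 nt, near the far edge of its 13 peaks, which spread from 136 to 3772 nt. Of the 13 coding genes with a peak of at least 5, 2 were named only after their values were seen. They were the selenoprotein gene Selenon, with 12 peaks up to 5.55, and 4833439L19Rik, with 11 peaks up to 5.07. The strongest peak of Selenon had a −log10 p of 6.24, below the median of the short-gene peaks.

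Genes of synapses and calcium signalling had many peaks packed at the end. Calm3, one of the genes for calmodulin, held 21 peaks from 3.17 to 4.40, which touched one another in 6 stretches, and 20 of the 21 lay within 1 kb of the 3′ end. Jph4, a junctophilin that ties the plasma membrane to the endoplasmic reticulum in neurons, held 19 peaks from 3.09 to 5.02 within 1332.5 nt. They too formed 6 such stretches. Vamp2, the synaptic vesicle protein synaptobrevin, is only 3854 nt long, and its 11 peaks, from 3.34 to 5.28, covered 22.5% of it. Syngr2, a synaptogyrin gene, had 1 peak, at 3.64, 1732 nt from its 5′ end and nearer that end than the other.

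**Figure D3:**
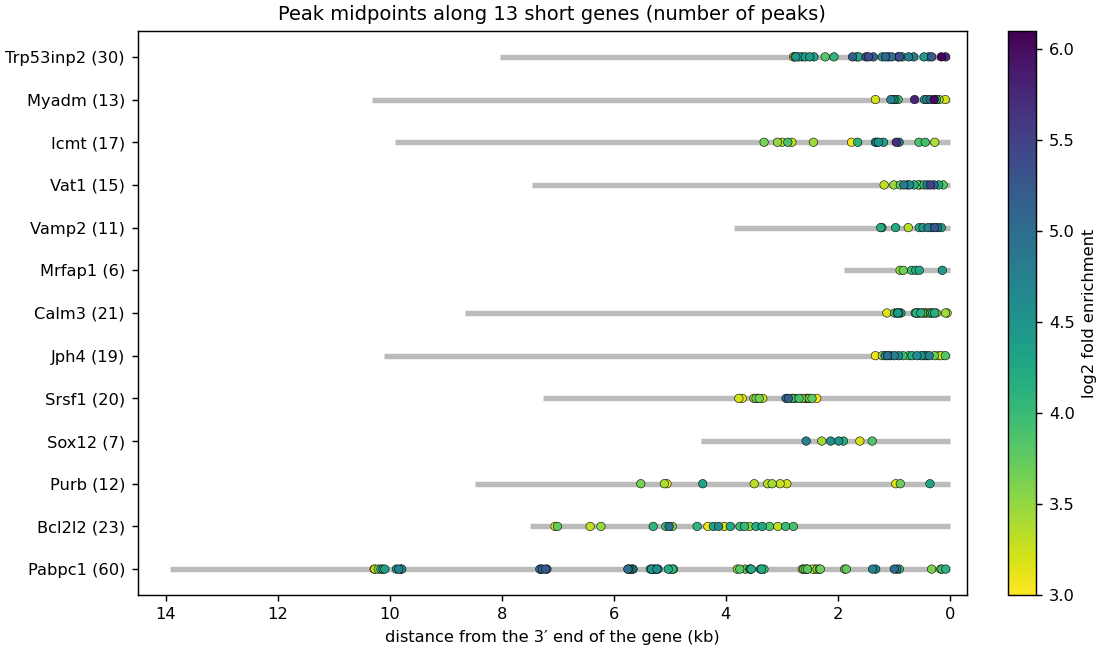
Peak midpoints along 13 genes below 15 kb, by distance from the 3′ end in kb with the 3′ end at the right. Grey bars span each gene, points are peaks coloured by log2 fold enrichment, and the number of peaks follows the name; from Trp53inp2 to Jph4 all peaks lie toward the right end, in Srsf1, Sox12 and Bcl2l2 they lie inside the gene, and in Purb and Pabpc1 they spread along it.

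A small set of genes carried peaks along their length. Pabpc1 on chromosome 15, whose protein binds poly(A) tails in the cytoplasm, held 60 peaks from 3.08 to 5.23 in 10 groups more than 300 nt apart. The group at 7194.5 to 7320.5 nt from the 3′ end was the strongest, with 5 peaks between 4.90 and 5.23, and the groups at 2315.5 to 2637 nt and nearest the end were among the weakest, with medians of 3.61 and 3.77. Its 15 peaks nearer the 5′ end had a median of 4.47, against 4.03 for the 45 nearer the 3′ end. Whether such a group coincides with an exon was not determined, since exons were not used here.

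Bcl2l2, the survival gene of Bcl-w on chromosome 14, held 23 peaks from 3.08 to 4.99, 15 of them nearer the 5′ end, and the largest covered share of any short coding gene, 26.0%. No peak of Bcl2l2 lay within 2796 nt of its 3′ end, and the outermost lay 443 nt from its 5′ end. Together Bcl2l2 and Pabpc1 gave 30 of the 61 short-gene peaks on the 5′ side, and the other 31 were spread over 17 genes with a median of 3.54. Srsf1, the founding SR splicing factor gene on chromosome 11, had its 20 peaks, from 3.06 to 5.20, in the stretch 2379 to 3769 nt upstream of the 3′ end, and 2 of them reached 4. Nop2, a ribosomal RNA methyltransferase gene named after its values were seen, had all 9 of its peaks, up to 4.16, between 5289 and 6913.5 nt from the end of a gene of 12871 nt.

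Sox12, a SoxC transcription factor gene on chromosome 2, had 7 peaks from 3.20 to 4.75 in 1 group between 1389.5 and 2568.5 nt from the end of a gene of 4436 nt. Purb, whose protein binds purine-rich single strands, had 12 peaks from 3.04 to 4.32 in 6 groups from 358.5 to 5519 nt. Its strongest peaks, at 4.28 and 4.32, were the one nearest the end and one 4413.5 nt away.

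Genes whose proteins bind and splice messenger RNA included 7 with peaks. Of 21 SR and hnRNP protein genes below 15 kb these were 33.3% (where 2.63% of all short coding genes had a peak), with 46 peaks in all. After Srsf1 the strongest were Hnrnpa0 at 4.75 with 11 peaks, Hnrnpul2 at 4.73 with 8 and Hnrnpdl at 4.10 with 2. Hnrnpa3, Hnrnpa1 and Srsf3 stood between 3.15 and 3.22. In 6 of the 7 genes all peaks lay nearer the 3′ end, as in 251 of all 266 short coding genes with peaks. Among translation factor genes 3 of 41 had peaks (7.32%, against the same 2.63%). They were Pabpc1, then Eef2, the elongation factor of translocation, at 3.13 with 2 peaks, and Eif5, of start codon recognition, at 3.01 with 1.

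Of 26 short cell cycle and growth control genes 5 had peaks (19.2%, against 2.63% of all short coding genes). Their 40 peaks all lay on the 3′ side, where 95.0% of all short-gene peaks lay, but the genes differed in how far from the end. Cdc25b, the phosphatase that activates mitotic kinases, had 10 peaks from 3.27 to 5.03 between 98 and 922 nt. Cdkn1a, the kinase inhibitor p21, had 6 from 3.46 to 4.80 between 102 and 815.5 nt. Ccng1, the p53-responsive cyclin G1, reached 4.74 with 4 peaks between 296.5 and 1569 nt, and E2f1, a transcription factor of S-phase entry, 4.23 with 6 between 482.5 and 874 nt. Ccnd1, the cyclin D1 of the G1 phase, had the most peaks, 14, and the lowest strongest value, 3.80. They lay between 981 and 2253 nt from the end with a median of 1494 nt, farther than the 835 nt of all short-gene peaks, and 1 of them was within 1 kb. Of 9 short genes of the Bcl2 family, which governs cell death, 1 had peaks, Bcl2l2 (11.1%, against the same 2.63%).

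Small GTPase genes had peaks in 7 of 51 (13.7%, against 2.63% of all short coding genes). Their 27 peaks all lay on the 3′ side, as 95.0% of all short-gene peaks did. Diras1, a Ras-family gene, reached 4.83 with 6 peaks, Arl8a, of lysosome transport, 4.74 with 4, Nras 3.99 with 8, and Arf6, of endocytic recycling, 3.83 with 5. Rhou, Arl1 and Rnd2 stood between 3.27 and 3.68. Among genes of tubulin, actin and the neuronal cytoskeleton 3 of 27 had peaks (11.1%, against the same 2.63%), Tubb5 at 3.90 with 7, Marcks, an actin-binding kinase substrate, at 3.78 with 10 and Tuba1a at 3.03 with 1.

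Housekeeping families were, with few genes each, on either side of the 2.63% of all short coding genes that had a peak. Cytosolic ribosomal protein genes had peaks in 4 of 83 (4.82%), the highest being Rpsa at 4.56 with 10 peaks and Rplp0 at 4.10 with 2, ahead of Rpl22 at 3.51 and Rpl15 at 3.26. The 10 peaks of Rpsa lay 894 to 3167.5 nt from its 3′ end, 3 of them on the 5′ side. Nuclear oxidative phosphorylation genes had peaks in 2 of 78 (2.56%), Atp5j2, an ATP synthase subunit, at 4.54 with 5 peaks and Cox7a2l, of respiratory supercomplex assembly, at 3.63 with 2. Histone genes had peaks in 1 of 72 (1.39%), H3f3b. Proteasome genes had peaks in 1 of 31 (3.23%), Psme3, the nuclear proteasome activator PA28γ, with 17 peaks from 3.06 to 4.84, of which 14 lay within 1 kb of the end. Chaperone genes had peaks in 2 of 44 (4.55%), Dnajc14 at 4.05 with 5 peaks and Bag2 at 3.10 with 1, and ubiquitin and E2 enzyme genes in 0 of 12.

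In the remaining lists of coding genes 3.23% to 5.56% of the short members had peaks, against 2.63% of all short coding genes, with at most 7 genes in each. Transcription factor genes of the immediate early and short class had peaks in 3 of 54 (5.56%), Sox12, Purb and Gata2, the last with 1 peak at 3.17. Solute carrier genes had peaks in 4 of 81 (4.94%), led by the zinc transporter gene Slc39a1 at 4.46 with 6 peaks. Tmem genes had peaks in 4 of 124 (3.23%), led by Tmem151b at 4.65 with 8. Genes with a Zfp or Zbtb symbol, which mark many but not all zinc finger genes, had peaks in 7 of 167 (4.19%), and these 7 stood at or below 3.83, the level of Zfp706. Maz, which carries neither symbol, had 7 peaks up to 4.73. Protein phosphatase subunit genes had peaks in 1 of 24 (4.17%), Ppp1r15b, which directs the phosphatase of translation factor eIF2α, at 3.93 with 8 peaks.

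**Figure D4:**
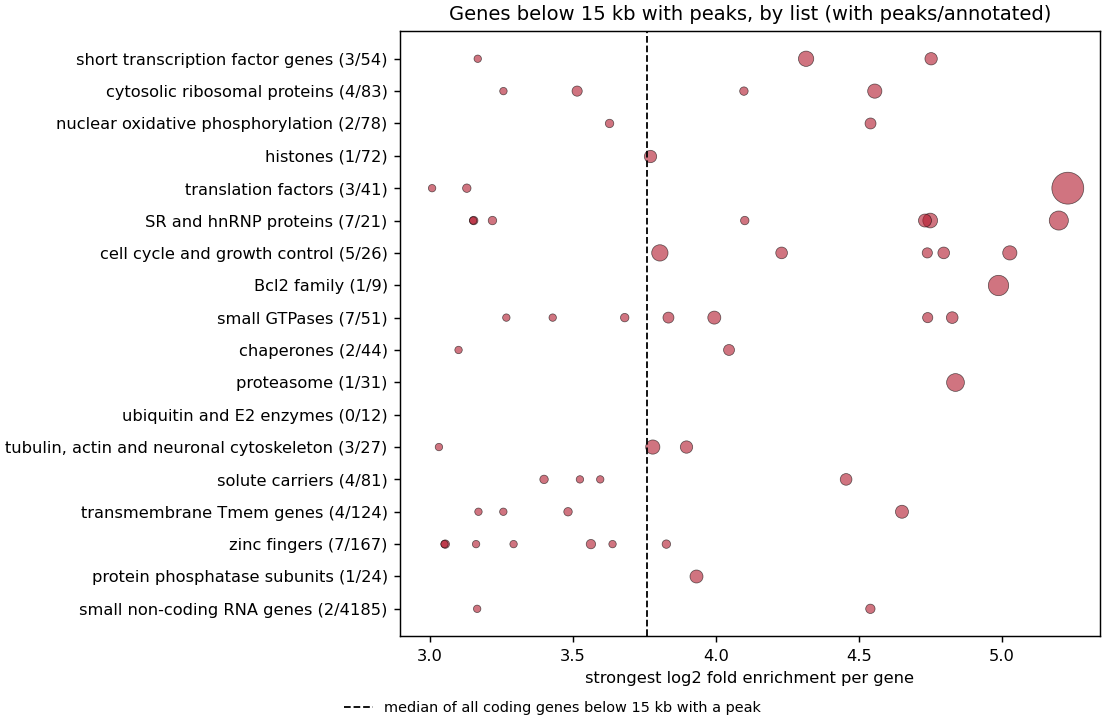
Each point is a gene below 15 kb with peaks, placed by its strongest log2 fold enrichment and sized by its number of peaks, in 18 lists with the number of genes with peaks over the number annotated below 15 kb. The dashed line is the median of all short coding genes with peaks, 3.76; SR and hnRNP genes are 7 of 21, ribosomal protein genes 4 of 83 and histone genes 1 of 72, and the row of zinc fingers holds Zfp and Zbtb symbols.

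Non-coding members numbered 18 peaks in 11 genes. Rny1, which encodes the Ro-associated Y1 RNA, on chromosome 6 (47788070 to 47788180, minus strand), is 111 nt long, and its 3 adjoining peaks covered 53.2% of it. From the 5′ side to the 3′ side they had log2 fold enrichments of 4.54, 3.28 and 3.23. Rn7s1, the gene of the signal recognition particle RNA, had 1 peak, 4 nt wide, at 3.17. Of 4185 short genes of small non-coding RNAs these were the only 2 with an assigned peak (0.0478%, against 2.63% of all short coding genes). AU020206, a long non-coding RNA gene, had 2 peaks at 3.95 and 3.26.

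Pseudogenes held 12 peaks in 8 genes. Rpsa-ps10, a pseudogene of the ribosomal protein gene Rpsa, had 3 peaks between 3.67 and 3.97 with a −log10 p of up to 18.9. Ftl1-ps1, a pseudogene of the ferritin light chain, had 2, up to 4.01. Gm8730 had 2, up to 3.42, with a −log10 p of up to 20.1, and Gm5088 had 1 at 3.55. Eef2-ps2, named after its value was seen, had 1 at 3.07. Rpsa and Eef2, the genes that 2 of these copies carry in their names, had peaks of their own, up to 4.56 and 3.13. How the reads of near-identical copies were placed is not given in the sources used here, so the values of these pseudogenes, of Rny1, Rn7s1, H3f3b and of the ribosomal protein and tubulin genes may each hold reads of another copy.

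Lineage markers gave little information on the cells. Of 13 short sympathetic and neuroblastoma markers 1 had a peak, Gata2 (7.69%, against 2.63% of all short coding genes). Of 5 longer ones Ret and Stmn2 had one, where 12.1% of all long coding genes did. Glial, fibroblast, and blood and endothelial markers had peaks in 0 of 7, 0 of 4 and 0 of 4, where 7.7% of all coding genes had one. Lists this small cannot be told apart from those shares. A peak requires binding as well as expression, so these counts do not measure the levels of the RNAs.

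At the limit of 15 kb the values ran on. The longest genes below it were Fam53c, of 14930 nt, with 10 peaks up to 4.02, Mnt, a MAX-binding repressor, of 14920 nt, with 1 at 3.33, and Hnrnpul2, of 14743 nt, with 8 up to 4.73. The shortest above it were Thap12, of 15027 nt, with 4 peaks up to 4.54, Eif4g2, a translation initiation factor gene, of 15046 nt, with 13 up to 4.20, and Ubfd1, of 15105 nt, with 7 up to 4.04.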

How the data were processed

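The authors deposited 1 list of peaks, which its name marks as immunoprecipitate versus input and IDR. It has no header. Column 4 was read as the authors' −log10 p-value and column 5 as the authors' log2 fold enrichment, from their ranges (each begins just above 3, and the first stops at 400) and the usual order of eCLIP peak files. The caller, the aligner and the cut-offs were not given in the sources used here. Per the labels, libraries were paired-end. The submitters' processing notes name mm10 and GRCm38.p6 as builds. Starts were converted to count from 1. Midpoints were placed in RefSeq GRCm38.p6 gene spans, which hold no exons. Where peaks touch they were counted singly. No tests were made, since the list holds no value per sample, and the replicates' origin is not stated. Placement was tested on simulated data (Python 3.11.15, pandas 2.3.3, scipy 1.17.1).

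Members and gene lists were chosen with earlier results of these data known, and symbols of gene families were spelled out after the file was seen. Named genes were the 8 strongest coding genes whose leading peak had at least the members' median −log10 p, the 6 with most peaks, the 5 with the largest covered share, the 5 strongest whose leading peak is nearer the 5′ end, up to 6 non-coding genes, up to 4 per list, and 3 on either side of 15 kb. Exceptions are marked. The 300 nt gap between groups of peaks was set after the data were seen. Alternatives were other span limits, stricter peaks, merged peaks, overlap in place of midpoints and leaving out Pabpc1.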

Additional observations from a re-analysis of the deposited data

How the results depend on the processing

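With a limit of 10 kb, 5.52% of the peaks were members, 1.80% of the short coding genes had a peak and the median midpoint was 780.5 nt from the 3′ end. With 20 kb the values were 15.2%, 3.17% and 931 nt. Peaks with a −log10 p of at least 5 gave a median log2 fold enrichment of 3.64 and a peak in 2.02% of the short coding genes. Peaks that reached 4 on the log2 scale gave, by construction, a median of 4.33 and a peak in 0.880% of these genes. Among them 7.19% were members and 93.3% of the members lay nearer the 3′ end. Other values under these settings, and all values with touching peaks merged, with overlap in place of midpoints or without Pabpc1 (added after seeing the data), stayed within the 95% binomial interval of the reported value. This interval treats peaks as independent, which those of a gene are not, and the alternatives reuse the same list. It serves only as a scale for the shifts and is no test. No paired analysis was possible because the list holds no column per library, and no replicate could be left out for the same reason. Reads per peak, and so counting error, were not known. If either value column was misread, strengths would change and positions would not.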
